A study of Mus musculus with 12 samples.

Results

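Genes that build the synapse and the neuronal cytoskeleton were followed in mouse cerebral cortex 2 hr after a mechanical brain injury. The set was a list of 39 symbols, each found in the deposited tables by its Ensembl gene identifier, out of 55487 genes in all. All 39 passed the filter on low counts, which left 16836 genes for testing. For the description they were put into 7 groups by what their proteins do: vesicle fusion, vesicle proteins, the presynaptic active zone, vesicular transmitter transporters, the postsynaptic density, cytoskeleton and growth, and neuronal enzymes and markers.

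The injury was controlled cortical impact (CCI), in which a piston strikes the exposed brain surface on one side. Ipsilateral (struck side) and contralateral (opposite side) cortex was taken from mice labelled wt (genotype CX3CR1cre-er/+) and cKO (genotype CX3CR1cre-er/+ STING fl/fl), giving 4 groups of 3 libraries. All 4 groups therefore carry the Cre allele and come from injured animals, and no sham or uninjured mice are among the samples. The Cre is driven from the Cx3cr1 locus, which is active in microglia and other mononuclear phagocytes, and the floxed gene encodes STING, a sensor adaptor for DNA in the cytosol. The series text gives the floxed animals CX3CR1cre/+ in place of CX3CR1cre-er/+, and neither age, sex nor tamoxifen treatment is stated. Whether each library is a separate animal is not stated in the labels, so the p values reflect only how much these libraries vary, which may in part be technical.

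At a synapse, a presynaptic vesicle loaded with transmitter docks at the active zone and fuses when SNARE proteins zip together in response to calcium. The released transmitter meets receptors held in the postsynaptic density by scaffold proteins such as PSD-95 and the Shanks. Microtubules, neurofilaments and their partners give axons and dendrites their shape and carry cargo along them, and several of these proteins leak into blood or cerebrospinal fluid when neurons are damaged. Cortical tissue holds neurons, glia and vessels together. In such bulk samples, fewer cells of a type and less RNA per cell cannot be told apart.

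The libraries held 7958931 to 33567194 counts. cKO ipsilateral library 3 was the shallowest and stood apart on the second principal component, with 10548 TPM of the brain noncoding RNA Bc1 against 83028 to 167036 TPM in the others. On the third component wt contralateral library 3 was the most distant. Tmem173, the gene of STING, was low in every library, at 2.34 to 3.69 CPM in wt and 0.762 to 2.44 CPM in cKO. Contralaterally the genotypes did not overlap, with a lowest wt value of 2.49 CPM above all 3 cKO ones. Ipsilaterally they did, since cKO library 2, with 61 counts, lay above wt library 1, with 57. CPM here are counts scaled to a common library size, and TPM, which also correct for gene length, are used to set one gene beside another. Mitochondrially encoded genes took 5.31% to 8.16% of counts in ipsilateral and 4.27% to 5.45% in contralateral libraries, and the ranges of both sides overlapped.

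The members were mostly abundant transcripts. Snap25, a SNARE of the presynaptic membrane, had the highest level per length, 2830 ± 390 TPM (mean ± SD over 12 libraries), followed by Nrgn, a calmodulin-binding postsynaptic protein, at 2093 ± 300 TPM and Camk2a, a kinase of the postsynaptic density, at 1097 ± 113 TPM. From Vamp2, the vesicle SNARE in 4th place at 923 ± 102 TPM, down to Eno2 in 9th place at 778 ± 115 TPM, neighbours in the order differed by less than their SD. Dpysl5, a regulator of neurite growth, was lowest at 6.60 ± 1.65 TPM, below Pclo at 27.2 ± 5.49 TPM. The neuronal marker Rbfox3 (NeuN) stood at 192 ± 24.8 TPM. The smallest count behind any member value was 184, for Dpysl5 in cKO ipsilateral library 3, and the largest was 125691, for Snap25. Added together, the 39 genes took 19053 to 19405 TPM in wt contralateral, 14963 to 18551 TPM in wt ipsilateral, 19003 to 20275 TPM in cKO contralateral and 14652 to 20811 TPM in cKO ipsilateral libraries. The wt sides did not overlap in this TPM sum, while the cKO sides did, because cKO ipsilateral library 3 lay highest of all. This pattern depended on the scale and was reversed in the members' share of all counts. There wt ipsilateral library 1, at 2.97%, lay above wt contralateral library 3, at 2.92%. The highest cKO ipsilateral share, 2.96% in library 3, lay below every cKO contralateral one. The part of the low Bc1 level of cKO ipsilateral library 3 in its TPM sum was not tested.

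The main comparison averaged the ipsilateral minus contralateral difference over both genotypes, which uses 6 libraries a side. Differences are log2 with their standard error. Tests are edgeR's quasi-likelihood test, and each adjusted p is by the Benjamini-Hochberg method over all tested genes. Of the 39 genes, 7 fell on the struck side and 1 rose. The 7 were Tubb3, Eno2, Syn2, Stmn2, Snap25, Uchl1 and Syt1, and the gene that rose was Rims1. In all tested genes 2.03% were called lower and 5.99% higher. Among genes averaging 100 CPM or more, a level that 36 of the 39 reach, 7.44% were called lower and 5.17% higher, against 7 (19.4%) and 1 (2.78%) of the 36. The members were chosen with earlier results of these data known, so these shares are a description only. The changes were small: 6 of the 7 falls came to between 11.3% and 12.2%, and Tubb3 fell by 23.0%. Leaving out 1 library gave 3 to 12 calls, the fewest without wt ipsilateral library 3 or cKO contralateral library 1 and the most without wt contralateral library 3. limma on log2 TPM called 2 of the 8, Tubb3 and Syn2.

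Most members that did not pass also lay below 0. The fitted difference was below 0 for 31 of 39 members, against 51.8% of all tested genes. Among genes averaging 100 CPM or more it was below 0 for 28 of 36 members (77.8%), near the 72.0% of all such genes. The members were not matched to genes of equal level. The median difference was −0.13 for the members, −0.01 for all tested genes and −0.06 for the abundant ones. The wt and cKO differences were both below 0 for 30 of 39 members, against 36.4% of tested genes. That share was not worked out for genes averaging 100 CPM or more. Nor were the shares of genes whose sides did not overlap, here and below. For 5 members, Tubb3, Eno2, Syn2, Stmn2 and Sv2a, all 6 ipsilateral libraries lay below all 6 contralateral ones, which 1.63% of tested genes did. No member had all ipsilateral libraries above all contralateral ones, where 3.59% of tested genes did. At an unadjusted p under 0.05, 18 members were lower and 1 was higher, against 10.3% and 12.6% of tested genes. Among genes averaging 100 CPM or more, 554 of 2165 were lower and 201 higher at that p, against 16 and 1 of the 36 members at that level.

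**Figure D1:**
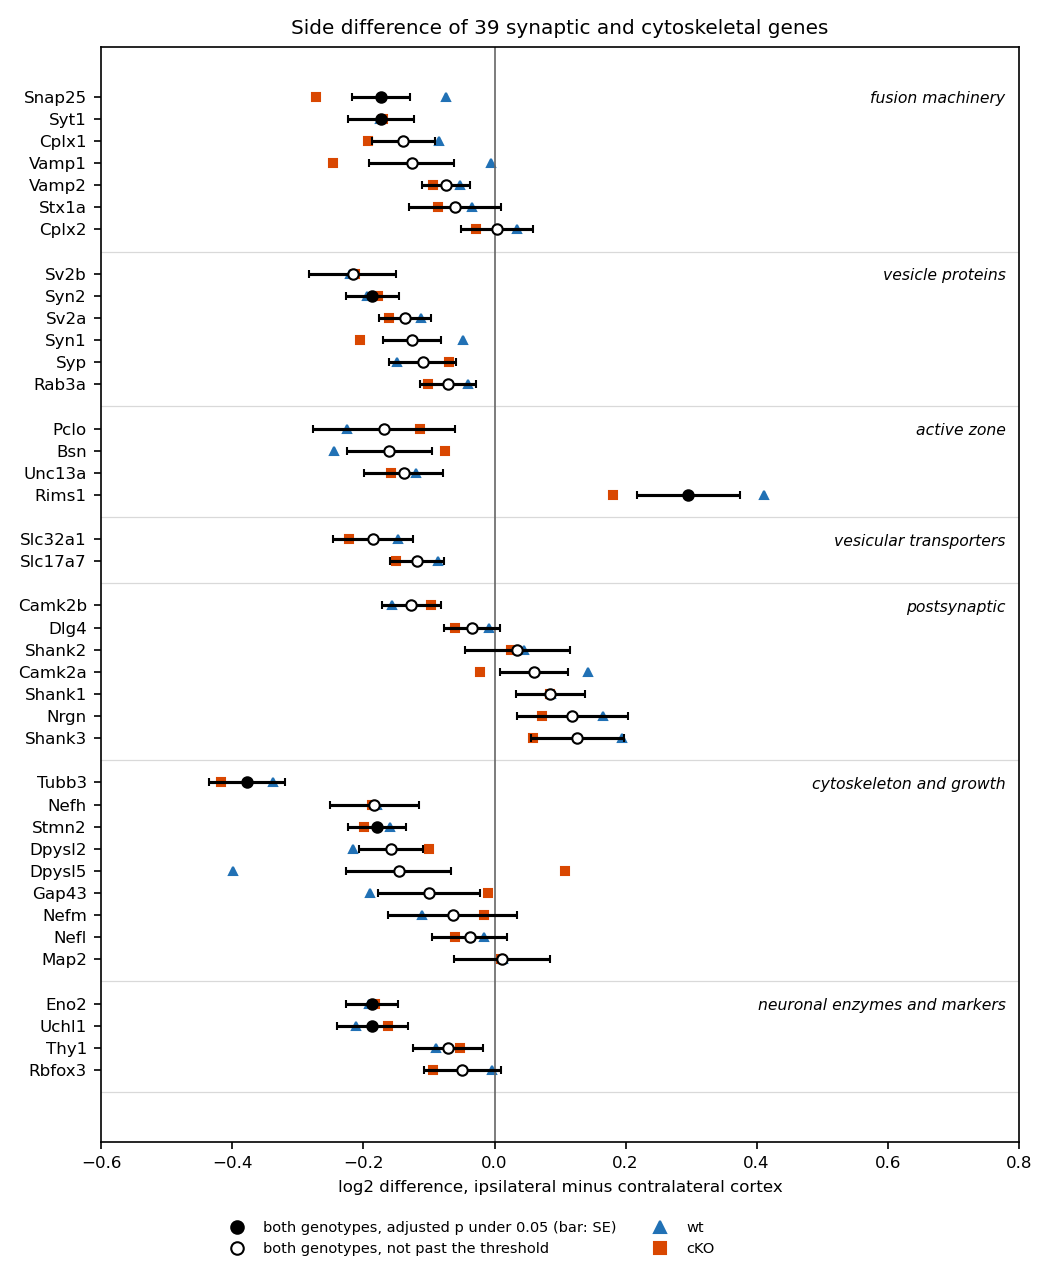
Log2 difference between ipsilateral and contralateral cortex (x axis) for each of the 39 genes, grouped by role. Circles with SE bars are the mean of both genotypes, filled where the adjusted p is under 0.05; triangles are wt and squares cKO. The filled circles are the 7 falls and Rims1, and 5 of the 7 postsynaptic genes lie right of 0.

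The members with the firmest falls and the 1 rise are shown with the DNA before their RefSeq start sites (assembly GRCm38.p6, the same sequence as mm10), so that their promoters can be read beside the values. Capitals mark matches to the motifs searched, on either strand. They were the GC box (GGGCGG), the cAMP response element (TGACGTCA), the core of the NRF1 motif, the TATA box (TATAAA), the E-box (CACGTG) and both parts of the REST element (CAGCACC and GGACAG). None of these overlap each other in the printed bases.
Tubb3, chr8:123411303-123411423, plus strand: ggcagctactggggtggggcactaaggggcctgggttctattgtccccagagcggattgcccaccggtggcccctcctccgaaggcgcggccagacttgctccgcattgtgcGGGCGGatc
Eno2, chr6:124769674-124769923, minus strand: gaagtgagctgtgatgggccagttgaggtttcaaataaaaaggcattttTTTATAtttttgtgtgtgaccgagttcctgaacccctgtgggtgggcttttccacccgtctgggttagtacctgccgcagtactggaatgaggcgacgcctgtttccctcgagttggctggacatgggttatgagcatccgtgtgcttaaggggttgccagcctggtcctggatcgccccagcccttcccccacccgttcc
Syn2, chr6:115134652-115134901, plus strand: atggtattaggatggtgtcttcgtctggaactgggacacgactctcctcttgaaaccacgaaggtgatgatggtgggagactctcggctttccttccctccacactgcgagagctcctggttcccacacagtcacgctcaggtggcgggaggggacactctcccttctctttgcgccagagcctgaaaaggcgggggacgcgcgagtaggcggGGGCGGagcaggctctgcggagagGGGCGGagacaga
Rims1, chr1:22806159-22806408, minus strand: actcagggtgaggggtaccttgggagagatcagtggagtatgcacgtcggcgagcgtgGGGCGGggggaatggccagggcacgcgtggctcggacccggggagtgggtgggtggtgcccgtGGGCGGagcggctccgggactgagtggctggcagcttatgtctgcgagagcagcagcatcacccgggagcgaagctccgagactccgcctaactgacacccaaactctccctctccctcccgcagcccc
The Tubb3 stretch stops at 121 bases, where an annotated exon of the gene begins, and the search used the full 250 bases. Tubb3, Syn2 and Rims1 hold GC boxes. Eno2 holds none, and its only match is to the TATA box letters on the opposite strand (TTTATA), far from the start site. The 3 genes shown that fell thus do not share a motif of this list. The window at another start of Syn2, not printed, held no match. Of the other called genes with a window, Syt1 held a GC box and the GGACAG part, and Uchl1 held no match. RefSeq windows of 250 bases were given for 27 of the 39 members (35 windows, since some genes have more than 1 start). The GC box was in 19 of the 35 member windows (54.3%) and in 32.7% of 32817 windows of all genes, while median GC content was 58.8% and 52.4%. The TATA box was in 3 member windows (8.57%) and in 12.4% of all. The CAGCACC part of the REST element was in 2 member windows (5.71%), 1 of them that of Tubb3 outside the printed bases, and in 5.73% of all. The GGACAG part was in 6 member windows (17.1%) and in 18.7% of all. The cAMP response element, the NRF1 motif and the E-box were each in 1 member window (2.86%), against 1.55%, 0.777% and 6.02% of all. These are matches of letters, and no binding was measured.

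Cytoskeleton and growth genes held the largest fall. Tubb3 (ENSMUSG00000062380, chr8:123411424-123422015, plus strand, mm10), the neuron-specific class III beta-tubulin, was at 419, 421 and 348 CPM in wt contralateral and 302, 339 and 299 CPM in wt ipsilateral libraries 1 to 3. In cKO it was at 393, 374 and 421 CPM contralaterally and 283, 313 and 294 CPM ipsilaterally. All ipsilateral libraries were below all contralateral ones, the closest pair being 339 and 348 CPM. Tubb3 fell by 0.38 ± 0.06 over both genotypes (adjusted p = 0.00068), and this call held with each library left out in turn. It was also called within wt (−0.34 ± 0.08, adjusted p = 0.039) and within cKO (−0.42 ± 0.08, adjusted p = 0.00984).

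Stmn2 (ENSMUSG00000027500, chr3:8509360-8561606, plus strand), which encodes stathmin-2, a tubulin-binding protein needed to maintain axons, was at 365, 363 and 351 CPM in wt contralateral and 330, 317 and 319 CPM in wt ipsilateral libraries. The cKO values were 368, 343 and 351 CPM contralaterally and 315, 285 and 326 CPM ipsilaterally. No ipsilateral library reached any contralateral one, and Stmn2 fell by 0.18 ± 0.04 (adjusted p = 0.0215). The call was lost without cKO contralateral library 1, cKO ipsilateral library 2, wt ipsilateral library 2 or 3, or wt contralateral library 2 (highest adjusted p = 0.072).

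The other 7 cytoskeletal genes did not pass the test. The neurofilament subunits, which fill large axons, lay at −0.04 ± 0.06 (Nefl, light), −0.06 ± 0.10 (Nefm, medium) and −0.18 ± 0.07 (Nefh, heavy, unadjusted p = 0.016). Nefl and Nefm share 1108 exonic bases on opposite strands, and whether the counting used strand is not given in the sources used here, so their reads may be mixed. Map2, the microtubule protein of dendrites, was at 0.01 ± 0.07, with group means of 800 to 817 CPM. Gap43, the growth cone protein, was at −0.10 ± 0.08. The collapsin response mediator genes Dpysl2 (−0.16 ± 0.05, adjusted p = 0.0636) and Dpysl5 (−0.15 ± 0.08) are taken up with the genotypes. In this group 8 of 9 genes were below 0 (median −0.15), against 72.0% of genes averaging 100 CPM or more.

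**Figure D2:**
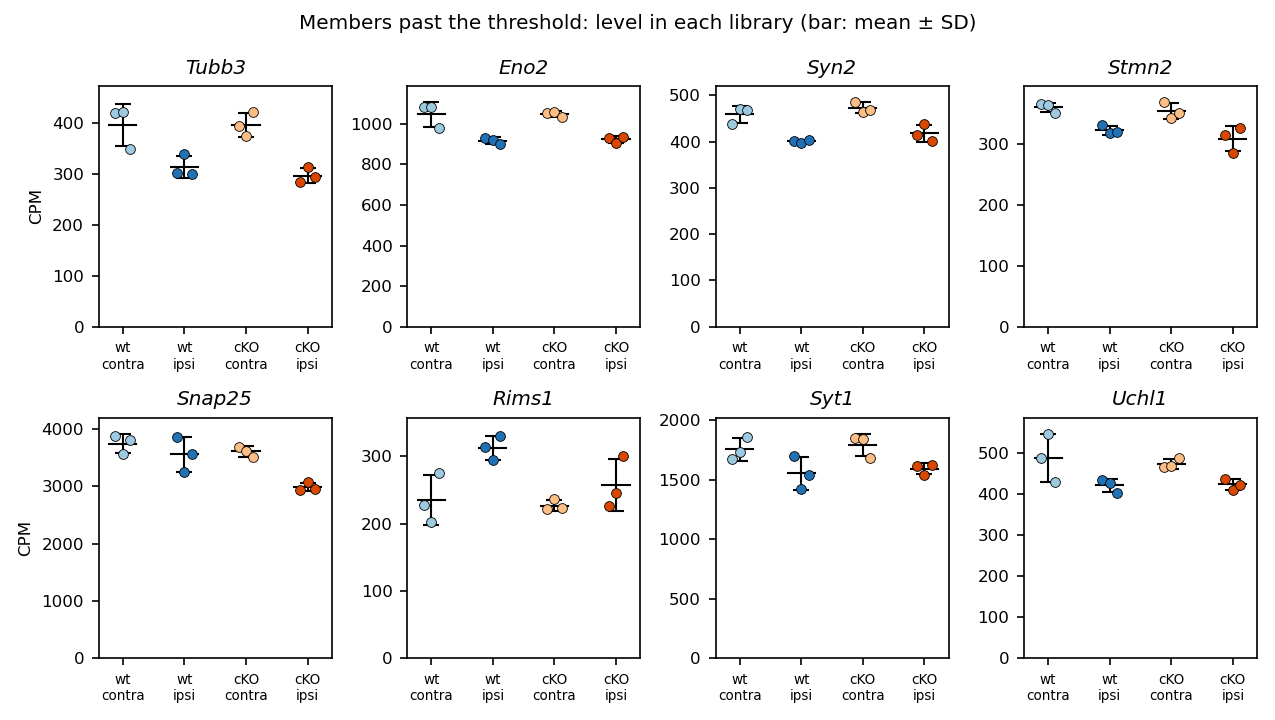
Level in CPM (y axis, from 0) of the 8 genes past the threshold, in each of the 12 libraries by group. Points are libraries and bars the mean ± SD of 3; Tubb3, Eno2, Syn2 and Stmn2 show no overlap of sides, while Snap25 is low in cKO ipsilateral libraries (2938 to 3070 CPM) and overlaps in wt.

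Neuronal enzymes and markers gave 2 more falls. Eno2 (ENSMUSG00000004267, chr6:124760053-124769673, minus strand), neuron-specific enolase of glycolysis, was at 1085, 1080 and 977 CPM in wt contralateral and 930, 922 and 898 CPM in wt ipsilateral libraries. In cKO it stood at 1052, 1058 and 1031 CPM contralaterally and 930, 903 and 935 CPM ipsilaterally. The sides did not overlap, and Eno2 fell by 0.19 ± 0.04 (adjusted p = 0.00813), a call kept with each library left out in turn. Its differences within each genotype were nearly equal, −0.19 ± 0.06 in wt and −0.18 ± 0.06 in cKO, and neither passed alone (adjusted p = 0.0922 and 0.126).

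Uchl1 (ENSMUSG00000029223, chr5:66676091-66687234, plus strand), a ubiquitin hydrolase whose protein is used as a blood marker of brain injury, was at 486, 546 and 428 CPM in wt contralateral and 433, 426 and 403 CPM in wt ipsilateral libraries. The cKO values were 465, 467 and 488 CPM contralaterally and 437, 409 and 423 CPM ipsilaterally. The cKO sides were separate, and in wt contralateral library 3 lay among the ipsilateral ones. Uchl1 fell by 0.19 ± 0.05 (adjusted p = 0.048), but the call held in only 1 of 12 fits with a library left out, the one without wt contralateral library 3 (highest adjusted p = 0.122 in the others). The neuronal surface protein gene Thy1 was at −0.07 ± 0.05 and Rbfox3, a splicing factor of mature neurons, at −0.05 ± 0.06, with group means of 285 to 308 CPM for Rbfox3.

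Fusion machinery was led by Snap25 and Syt1. Snap25 (ENSMUSG00000027273, chr2:136713453-136782428, plus strand) was at 3874, 3554 and 3800 CPM in wt contralateral and 3855, 3254 and 3556 CPM in wt ipsilateral libraries. In cKO it was at 3689, 3621 and 3512 CPM contralaterally and 2938, 3070 and 2952 CPM ipsilaterally. The wt sides overlapped, whereas every cKO ipsilateral library was below every other library of the study. Snap25 fell in cKO by 0.27 ± 0.06 (adjusted p = 0.03) and over both genotypes by 0.17 ± 0.04 (adjusted p = 0.028), and in wt it was at −0.07 ± 0.06 (adjusted p = 0.652). The test of the difference between these responses did not pass (−0.20 ± 0.09, unadjusted p = 0.044, adjusted p = 1). The cKO call was lost without any 1 of the 6 cKO libraries (highest adjusted p = 0.143) and with GC content and length trends removed. The call over both genotypes was lost without cKO contralateral library 1 or 2, cKO ipsilateral library 1, wt ipsilateral library 2 or 3, or wt contralateral library 1 (highest adjusted p = 0.0785).

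Syt1 (ENSMUSG00000035864, chr10:108497650-109010982, minus strand), the calcium sensor of fast release, was at 1673, 1737 and 1862 CPM in wt contralateral and 1704, 1424 and 1541 CPM in wt ipsilateral libraries. The cKO values were 1849, 1846 and 1687 CPM contralaterally and 1615, 1541 and 1626 CPM ipsilaterally. The cKO sides were separate and the wt sides overlapped through ipsilateral library 1. Syt1 fell by 0.17 ± 0.05 (adjusted p = 0.0466), and the call held in 3 of 12 fits with a library left out, those without cKO contralateral library 3 or library 1 of either wt side (highest adjusted p = 0.124 in the others). With the replicate number as a block it was lost (adjusted p = 0.0614).

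Of the other 5 fusion genes none passed. The complexins, which clamp and promote SNARE fusion, were at −0.14 ± 0.05 for Cplx1 (adjusted p = 0.0919) and 0.00 ± 0.06 for Cplx2. The vesicle SNAREs stood at −0.13 ± 0.07 for Vamp1 and −0.07 ± 0.04 for Vamp2. Stx1a, the syntaxin that pairs with Snap25 at the plasma membrane, was at −0.06 ± 0.07. The median of the 7 fusion genes was −0.13, with −0.05 in wt and −0.17 in cKO.

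Vesicle proteins were all below 0, and 1 of 6 passed. Of genes averaging 100 CPM or more, 72.0% were below 0 and 7.44% were called lower. Syn2 (ENSMUSG00000009394, chr6:115134902-115282006, plus strand), a synapsin that tethers vesicles in the reserve pool, was at 437, 470 and 468 CPM in wt contralateral and 402, 397 and 403 CPM in wt ipsilateral libraries. In cKO it was at 486, 463 and 469 CPM contralaterally and 414, 437 and 402 CPM ipsilaterally. The sides were separate in each genotype, and over both genotypes cKO ipsilateral library 2 (437.0 CPM) came within 1 CPM of wt contralateral library 1 (437.4 CPM). Syn2 fell by 0.19 ± 0.04 (adjusted p = 0.00991), a call kept with each library left out in turn. It shares 90 exonic bases with Timp4 on the opposite strand.

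Syp (ENSMUSG00000031144, chrX:7638471-7653256, plus strand), the vesicle membrane protein synaptophysin and the most abundant of this group per length, was at 1532, 1521 and 1329 CPM in wt contralateral and 1268, 1297 and 1386 CPM in wt ipsilateral libraries. The cKO values were 1495, 1398 and 1487 CPM contralaterally and 1397, 1277 and 1499 CPM ipsilaterally. Both genotypes overlapped between sides, and the difference of −0.11 ± 0.05 did not pass (adjusted p = 0.219). Syp shares 875 exonic bases with the antisense gene Gm14703. The glycoproteins Sv2a and Sv2b were at −0.14 ± 0.04 (adjusted p = 0.0509) and −0.22 ± 0.07 (adjusted p = 0.0591), just outside the threshold. Syn1 was at −0.13 ± 0.04 and Rab3a, the GTPase that brings vesicles to release sites, at −0.07 ± 0.04.

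The active zone held the one rise. Rims1 (ENSMUSG00000041670, chr1:22286251-22805994, minus strand), a scaffold that couples vesicles to calcium channels, was at 228, 203 and 275 CPM in wt contralateral and 314, 294 and 330 CPM in wt ipsilateral libraries. In cKO it was at 221, 236 and 223 CPM contralaterally and 226, 246 and 301 CPM ipsilaterally. The wt sides were separate, while in cKO 1 ipsilateral library lay among the contralateral ones and library 3 was highest. Rims1 rose by 0.30 ± 0.08 over both genotypes (adjusted p = 0.0307), with 0.41 ± 0.11 in wt (adjusted p = 0.0633) and 0.18 ± 0.11 in cKO (adjusted p = 0.491). The call was lost without cKO contralateral library 1 or 3, cKO ipsilateral library 3, wt ipsilateral library 3, or wt contralateral library 1 or 2 (highest adjusted p = 0.0792). The other active zone genes lay on the opposite side of 0 and did not pass. They were the cytomatrix giants Bsn (−0.16 ± 0.06) and Pclo (−0.17 ± 0.11), and Unc13a (−0.14 ± 0.06), which primes vesicles and shares 495 exonic bases with Colgalt1 on the opposite strand.

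Neither vesicular transporter passed. Slc17a7 (ENSMUSG00000070570, chr7:45163949-45176142, plus strand), which loads glutamate in cortical excitatory neurons, was at 1667, 1652 and 1572 CPM in wt contralateral and 1604, 1536 and 1467 CPM in wt ipsilateral libraries. Its cKO values were 1651, 1697 and 1564 CPM contralaterally and 1434, 1456 and 1535 CPM ipsilaterally. The cKO sides were separate and the wt sides overlapped, and the difference was −0.12 ± 0.04 (adjusted p = 0.0933). Slc32a1 (ENSMUSG00000037771, chr2:158610767-158615748, plus strand), which loads GABA and glycine in inhibitory neurons, was at 86.3, 80.0 and 70.0 CPM in wt contralateral and 67.4, 74.3 and 71.6 CPM in wt ipsilateral libraries. In cKO it was at 79.7, 74.7 and 89.9 CPM contralaterally and 68.0, 71.7 and 69.7 CPM ipsilaterally. It showed the same pattern of overlap, with a difference of −0.18 ± 0.06 (adjusted p = 0.0803). The transporters that mark excitatory and inhibitory terminals thus lay on the same side of 0, and whether they differ from each other was not tested.

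Of the 7 postsynaptic genes 5 were above 0 and none passed (median 0.06), and their difference from the other groups was not tested. In cKO alone their median was 0.02 with 3 of 7 below 0, and without cKO ipsilateral library 3 it was −0.07 with 6 of 7 below 0. Several of their mRNAs, those of Camk2a, Nrgn and Shank1 among them, are known to travel into dendrites, as does that of Map2. Nrgn (ENSMUSG00000053310, chr9:37544492-37552904, minus strand) was at 1886, 1494 and 1338 CPM in wt contralateral and 1709, 1781 and 1799 CPM in wt ipsilateral libraries. In cKO it was at 1549, 1504 and 1765 CPM contralaterally and 1627, 1463 and 1979 CPM ipsilaterally. The sides overlapped in both genotypes, and the difference was 0.12 ± 0.08 (adjusted p = 0.427).

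Camk2b (ENSMUSG00000057897, chr11:5969644-6066362, minus strand), the beta subunit of the same calcium-activated kinase as Camk2a, was at 879, 843 and 784 CPM in wt contralateral and 776, 740 and 734 CPM in wt ipsilateral libraries. The cKO values were 788, 847 and 779 CPM contralaterally and 713, 755 and 789 CPM ipsilaterally. It was the lowest of the postsynaptic genes at −0.13 ± 0.05 (adjusted p = 0.103), with separate sides in wt. Camk2a, the alpha subunit, was at 0.06 ± 0.05, with 0.14 ± 0.07 in wt and −0.02 ± 0.07 in cKO. The scaffolds were at −0.03 ± 0.04 for Dlg4 (PSD-95), 0.09 ± 0.05 for Shank1, 0.04 ± 0.08 for Shank2 and 0.13 ± 0.07 for Shank3. The sign of this group depended on the scale. In TPM, where the median of all genes itself moved to −0.11, all 7 were below 0 with a median of −0.06, and 2 of the 7 were below the median of all genes. With no filter the TPM median of all genes was −0.02 and 6 of the 7 were below it.

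**Figure D3:**
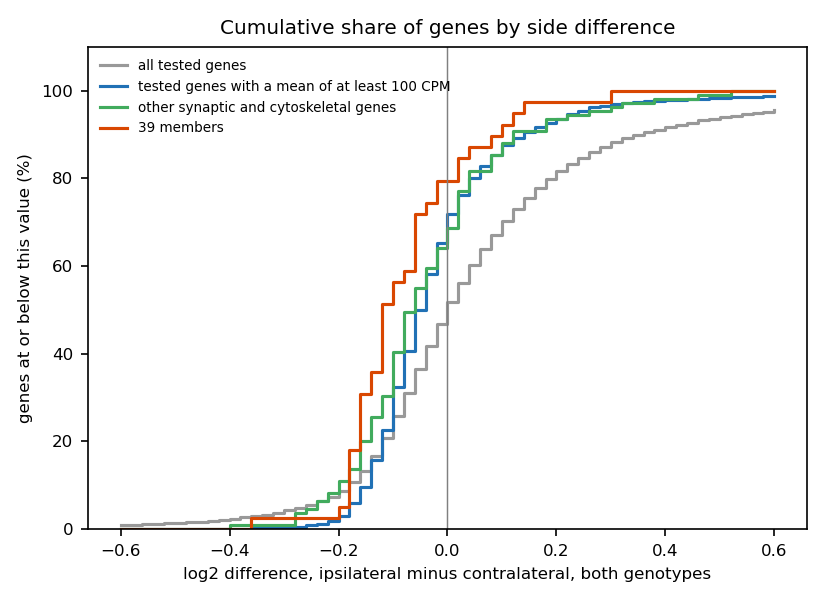
Cumulative share of genes (y axis, percent) at or below each log2 side difference (x axis, both genotypes) for all tested genes, those averaging 100 CPM or more, 109 other synaptic and cytoskeletal genes, and the 39 members. The order of the curves depends on the point. At −0.22 the shares are 7.42%, 1.89%, 8.26% and 2.56%. At −0.12, near the members' median, they are 20.8%, 22.5%, 30.3% and 51.3%. At 0 they are 51.8%, 72.0%, 68.8% and 79.5%.

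Other genes of the synapse and cytoskeleton were taken from a list of 109, which holds further SNAREs, synaptotagmins, tubulins, kinesins and scaffolds. Over both genotypes 2.03% of all tested genes were called lower and 5.99% higher. For genes averaging 100 CPM or more it was 7.44% and 5.17%, with a median of −0.06. Of the 109, 11 were called lower and 4 higher, with a median of −0.08, and their difference from abundant genes was not tested. The falls with the smallest adjusted p were Tuba4a, an alpha-tubulin, at −0.29 ± 0.04 (adjusted p = 0.000386), Syngr1, a vesicle membrane protein, at −0.22 ± 0.04 (adjusted p = 0.00233), and Napb, which helps take SNARE complexes apart, at −0.22 ± 0.05 (adjusted p = 0.00789). Tubulin genes changed in both directions: Tubb2b rose by 0.31 ± 0.06 (adjusted p = 0.0025) while Tubb3 and Tuba4a fell. Tubb2b has a near-identical copy, Tubb2a, so its reads may be split between the pair. The kinesin motor genes Kif5a and Kif5b rose by 0.50 ± 0.07 (adjusted p = 0.000223) and 0.45 ± 0.08 (adjusted p = 0.00234). Kif5a went from 4151 ± 244 to 5999 ± 931 CPM in wt and from 4097 ± 229 to 5709 ± 496 CPM in cKO.

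Within wt, 1 member was called lower (Tubb3) and 0 higher, where 0.184% of tested genes were called lower and 2.73% higher. At an unadjusted p under 0.05 there were 11 lower (5.43% of tested genes) and 1 higher (Rims1, 8.97% of tested genes). The wt difference was below 0 for 31 of 39 members (51.2% of tested genes). Among genes averaging 100 CPM or more, 66.9% were below 0, 0.6% were called lower and 2.08% higher. At an unadjusted p under 0.05, 284 of these 2165 genes were lower and 160 higher, against 10 and 1 of 36 members. The Tubb3 call was lost without cKO contralateral library 1, cKO ipsilateral library 1, wt ipsilateral library 1 or 3, or wt contralateral library 1 or 2 (highest adjusted p = 0.205). Without wt contralateral library 3, 4 members were called in wt (Eno2, Tubb3 and Uchl1 lower and Rims1 higher). In 10 members every wt ipsilateral library was below every contralateral one, against 8.70% of tested genes, and in 3 (Rims1, Camk2a and Shank3) every one was above, against 10.5%. The median wt difference of members was −0.09.

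Within cKO, 2 members were called lower (Tubb3 and Snap25) and 0 higher, where 0.178% of tested genes were called lower and 2.56% higher. At an unadjusted p under 0.05 there were 13 lower (5.48% of tested genes) and 0 higher (8.81%). The cKO difference was below 0 for 32 of 39 members (51.4% of tested genes). Among genes averaging 100 CPM or more, 71.2% were below 0, 0.6% were called lower and 1.29% higher. At an unadjusted p under 0.05, 301 of these 2165 genes were lower and 143 higher, against 12 and 0 of 36 members. The cKO call of Tubb3 was lost without cKO contralateral library 3 or cKO ipsilateral library 1 (highest adjusted p = 0.0613). In 15 members every cKO ipsilateral library was below every contralateral one, against 11.1% of tested genes, and in 0 every one was above, against 10.8%. The median was −0.10, −0.15 without cKO ipsilateral library 3 and −0.054 without cKO ipsilateral library 2.

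**Figure D4:**
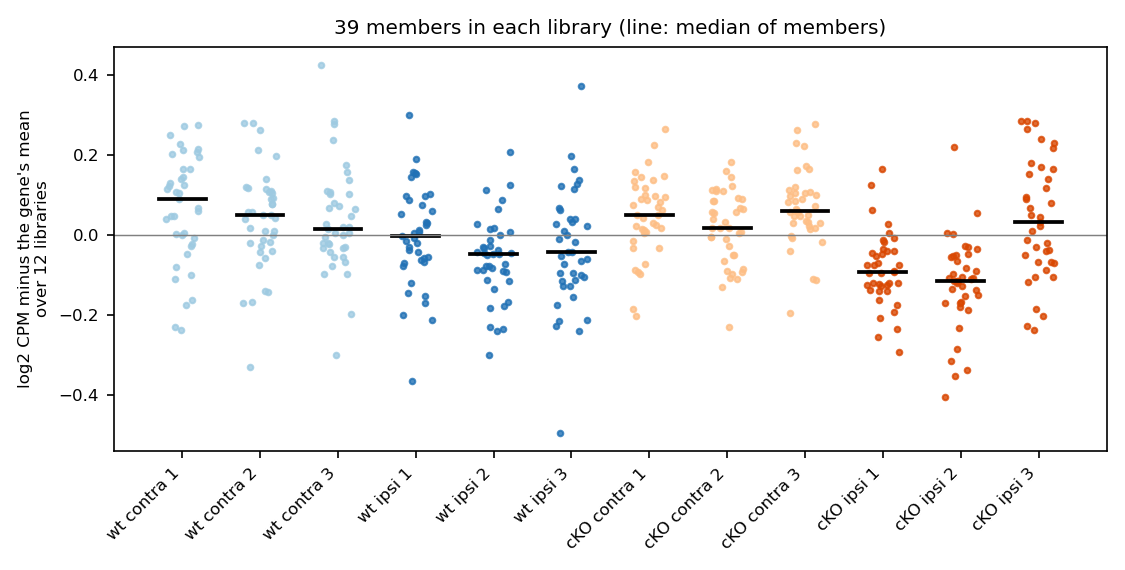
Each of the 39 genes in each library, as log2 CPM minus the gene's mean over 12 libraries (y axis), with the library's median as a line. The median is 0.01 to 0.09 in contralateral libraries and −0.11 to −0.00 in ipsilateral ones, except cKO ipsilateral library 3 at 0.03.

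Library by library, the members' median deviation was 0.09, 0.05 and 0.01 in wt contralateral and −0.00, −0.05 and −0.04 in wt ipsilateral libraries. It was 0.05, 0.02 and 0.06 in cKO contralateral and −0.09, −0.11 and 0.03 in cKO ipsilateral libraries. The ipsilateral libraries were thus below the contralateral ones with 1 exception, cKO ipsilateral library 3, the shallowest of the 12. With it and wt contralateral library 3 left out, 14 members were called lower and 1 higher over both genotypes. That fit was added after the data were seen. How many of all genes it called is not given here, so whether the members stand out in it cannot be seen. The added falls were Camk2b, Dpysl2, Nefh, Slc17a7, Slc32a1, Sv2a, Syp and Thy1, and Syt1 was no longer called.

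The genotypes were then compared on each side. In ipsilateral cortex 0 members were called with edgeR, as in all tested genes (0% lower and 0% higher). At an unadjusted p under 0.05, 5 members were lower in cKO and 2 higher, against 3.04% and 2.83% of tested genes. The lower ones were Snap25 (−0.25 ± 0.06), Camk2a (−0.21 ± 0.07), Cplx1 (−0.18 ± 0.07), Rims1 (−0.28 ± 0.11) and Vamp1 (−0.22 ± 0.09). The higher ones were Dpysl5 (0.55 ± 0.12, unadjusted p = 0.000289, adjusted p = 0.577) and Dpysl2 (0.30 ± 0.07, adjusted p = 0.577). Dpysl5 was at 15.4 ± 1.73 CPM in wt and 22.5 ± 0.549 CPM in cKO ipsilateral cortex, and at 20.3 ± 2.76 and 20.9 ± 1.72 CPM contralaterally. The cKO libraries were all below the wt ones for 4 members (5.99% of tested genes) and all above for Dpysl2 and Dpysl5 (5.6%). In all, 25 of 39 differences were below 0 (49.6% of tested genes). Of those averaging 100 CPM or more, 23 of 36 members and 1219 of 2165 genes were below 0. At an unadjusted p under 0.05, 5 of these members were lower and 1 higher, against 109 and 46 of these genes. DESeq2 called Dpysl2 and Dpysl5 higher, and edgeR with no filter on low counts called Dpysl5 higher and Rims1 and Snap25 lower. How many of all genes those runs called is not given here, so whether these members stand out in them cannot be seen.

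In contralateral cortex 0 members were called, again as in all tested genes (0% and 0%). At an unadjusted p under 0.05, 0 members were lower (1.15% of tested genes) and 1 was higher (1.55%). It was Dpysl2 (0.18 ± 0.07), with 161 ± 1.95 CPM in wt and 182 ± 12.6 CPM in cKO. The cKO libraries were all below the wt ones for Unc13a (3.6% of tested genes) and all above for Dpysl2 (3.4%). Below 0 were 22 of 39 differences (50.3% of tested genes). Of those averaging 100 CPM or more, 21 of 36 members and 1166 of 2165 genes were below 0. DESeq2 also called 0 members on this side. The genotype difference of the injury response was called for 0 members with edgeR and with DESeq2 (0% and 0% of all tested genes with edgeR). At an unadjusted p under 0.05 it was below 0 for Snap25 (1.09% of tested genes) and above 0 for Dpysl5 (1.17% of tested genes). The Dpysl5 value was 0.51 ± 0.16 (unadjusted p = 0.00663, adjusted p = 1). In all, 25 of 39 differences of responses were below 0 (50.1% of tested genes). Of those averaging 100 CPM or more, 23 of 36 members and 1160 of 2165 genes were below 0. Dpysl5 was at −0.40 ± 0.11 in wt (adjusted p = 0.0816) and 0.11 ± 0.11 in cKO. For the falls that did not overlap between sides, the difference of responses was 0.01 ± 0.08 for Eno2, 0.02 ± 0.08 for Syn2, −0.04 ± 0.09 for Stmn2 and −0.08 ± 0.12 for Tubb3. The genotype comparisons and this one share libraries.

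Markers of other cells moved with side as well. Over both genotypes 8 of 8 tested neutrophil markers and 5 of 6 erythroid ones were called higher. Summed over all listed markers, levels were 30.6 to 139 against 4.51 to 7.46 TPM and 2442 to 7360 against 65.6 to 1013 TPM. The lists held 12 and 8 markers, and those not tested did not pass the filter on low counts. Genes low contralaterally can pass that filter through the ipsilateral libraries alone, so these 2 shares are partly set by it. The neutrophil genes Ly6g and Camp had at most 3 counts in any library. Astrocyte markers were called higher in 7 of 10 cases (1866 to 2445 against 1796 to 2042 TPM) and mitochondrially encoded genes in 13 of 13. Meningeal and fibroblast markers were called lower in 3 of 9 cases (1392 to 1987 against 2238 to 2972 TPM). Called higher were also 3 of 7 monocyte and macrophage, 3 of 12 endothelial and mural, 2 of 6 precursor and 2 of 11 oligodendrocyte markers, and of 12 microglial ones 1 was called higher and 1 lower. Of the neuronal type markers, 0 of 10 cortical excitatory and 0 of 10 interneuron genes were called with edgeR, with 1 and 3 lower at an unadjusted p under 0.05 and medians of 0.04 and −0.06. Striatal and hippocampal markers had 0 of 10 and 0 of 6 calls with edgeR, with 2 and 1 higher at that p. The part of these cell types, of the mitochondrial share and of depth in the differences of the synaptic genes was not tested.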

How the data were processed

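RNA from 12 cortex libraries (4 groups of 3) was prepared with a stranded mRNA kit, per the labels. The authors deposited RSEM estimated counts, stored as whole numbers, and TPM per gene. Per the submitters' processing notes, the tools were Trim Galore 0.6.4, STAR 2.7.1a, RSEM 1.2.28 and DESeq2 1.36.0 with build mm10. Their settings, the annotation used for counting and its strandedness are not given in the sources used here. RSEM divides reads between similar genes, so members with close paralogs rest partly on that division.

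Identifiers were matched to GENCODE M21 (55227 of 55487, 99.5%; all 39 members) for symbols, coordinates and exon overlaps. The tests were run in R 4.3.3 with DESeq2 1.42.0, limma 3.58.1 and edgeR 4.0.16. Genes were kept by filterByExpr (minimum count 10, minimum total 15), counts were scaled by TMM, and 1 quasi-likelihood model over the 4 groups gave 6 comparisons: side within wt, within cKO and over both, genotype on each side, and the difference of responses. P values were adjusted by Benjamini-Hochberg with a threshold of 0.05. CPM rest on TMM-scaled library sizes (prior count 2 for log2 CPM). Alternatives were other scalings, filters (1 CPM in 3 libraries and a total of 100) and tests, limma on log2 TPM with 1 or 0.1 added, each library left out, a replicate block, the compared groups only, and removal of GC and length trends (smoothing span 0.3). A fit without cKO ipsilateral library 3 and wt contralateral library 3 was added after the data were seen.

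The members and lists were chosen with earlier results of these data known. Values in every library were given for members past the threshold in any comparison and, per role group, for the member with the highest mean TPM and the one with the smallest unadjusted p over both genotypes. Of the 109 other genes, the 3 called lower and 3 called higher with the smallest adjusted p were named. On simulated counts (16639 genes) the code recovered 68% of genes with a true log2 change of −0.5 over both genotypes, 50% in wt and 44% in cKO, with 9, 6 and 6 false calls. The changed genes were drawn from all genes of at least 1 CPM. Most members are more abundant, with a median SE over both genotypes of 0.055 against 0.090 for all tested genes. These rates are therefore not those of the members. The members' fitted differences were mostly smaller in size than a log2 change of 0.5, so genes that did not pass may still differ.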

Additional observations from a re-analysis of the deposited data

How the results depend on the processing

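No called member changed sign under any alternative run. Tubb3 was called over both genotypes in all 24 alternatives, Syn2 in 23 and Eno2 in 21. The counts of called members in the alternatives are given without those of all genes. They therefore also follow how many genes a run calls in total. Over both genotypes, 8 members were called. The number was 13 with library totals, 16 with DESeq2, 2 with limma on log2 TPM with 1 or 0.1 added and 1 with no filter, 15 without both libraries that stand apart, 13 after removal of GC and length trends and 18 with that removal and the replicate block. With each library left out it was 3 to 12 (3 without cKO contralateral library 1 or wt ipsilateral library 3, 4 without library 2 of either wt side, 5 without cKO ipsilateral library 1 or 2, and 12 without wt contralateral library 3). In wt, 1 member was called, against 3 with library totals, 3 with no low-count filter, 6 with DESeq2, 0 with limma on TPM with no filter, 4 without both libraries that stand apart, 0 with the compared groups only and 5 after removal of GC and length trends. With each library left out it was 0 to 4, with 2 without cKO ipsilateral library 3. In cKO, 2 were called, against 6 with DESeq2, 0 in each of the 3 limma fits on TPM and 1 without both libraries that stand apart. With each library left out it was 0 to 2, with 1 without cKO contralateral library 1 or 2 or cKO ipsilateral library 2 or 3. Between genotypes in ipsilateral cortex 0 were called, against 3 with no filter and 2 with DESeq2.

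On the TPM scale with 1 added and the filter, the median of all genes itself moved, to −0.18 in wt, −0.04 in cKO, −0.11 over both genotypes, 0.16 between genotypes in ipsilateral cortex and 0.14 for the difference of responses. The members' medians were −0.29, −0.15, −0.24, 0.13 and 0.11 in those 5 comparisons, with 1 or 0.1 added and with or without the filter, so with the filter those of the last 2 stayed slightly below all genes. With no filter the medians of all genes were 0.070 and 0.064 for those 2, below the members. With library totals the wt median was −0.14. Without both libraries that stand apart it was −0.15 in cKO and −0.073 between genotypes in ipsilateral cortex. With each library left out the medians ran from −0.13 to −0.07 in wt, −0.15 to −0.054 in cKO, −0.14 to −0.10 over both genotypes, −0.074 to −0.010 between genotypes in ipsilateral cortex, −0.025 to 0.0016 between them contralaterally, and −0.074 to −0.00018 for the difference of responses.

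Libraries of the sides share replicate numbers, which nothing in the labels calls the same animal. Deviations from the group means of equally numbered sides correlated over all tested genes at −0.002, 0.0941 and 0.0457 in wt and 0.0705, 0.092 and 0.0568 in cKO, and over genes of at least 10 CPM at −0.301, 0.465 and −0.002 in wt and 0.250, 0.312 and 0.237 in cKO. Unequally numbered sides correlated over all tested genes at −0.111 to 0.0606 in wt and −0.0725 to −0.00116 in cKO. Over genes of at least 10 CPM they correlated at −0.514 to 0.426 in wt and −0.203 to −0.0539 in cKO. Whether the equally numbered pairs differ from these was not tested. With the replicate block, wt had 2 calls (Tubb3 and Rims1), cKO kept Tubb3 and Snap25, and over both genotypes Syt1 was lost. With the block after removal of those trends, wt had 6. The median SE of the members' side difference was 0.08 in wt and in cKO.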
